A study of Mus musculus with 9 samples.

Results

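Mitochondria join and divide, and 8 nuclear genes of that machinery were followed here through ribosome-bound RNA of mouse fat: Mfn1, Mfn2, Opa1, Dnm1l, Fis1, Mff, Mtfp1 and Mtfr1. They were chosen by name, and each was found on 1 line among the 22527 symbols of the deposited table. The libraries came from C57BL/6 mice aged 8 weeks, 3 per fat depot and 9 in all: brown fat (BAT), the inguinal white depot (iWAT) and the epididymal one (eWAT). Inguinal fat lies under the skin and epididymal fat inside the abdomen. Ribosomes were pulled down with an anti-GFP antibody; all mice are labelled wild type, and the sample labels give neither the tagged ribosomal protein nor its promoter. The series is titled for adipocytes and the deposited table is named for adiponectin, a gene of adipocytes, without saying how the tag was driven. The labels do not say whether the 3 libraries of a depot came from separate animals, so p-values measure the spread between these libraries.

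Fusion of the outer membrane is carried out by the mitofusins, large GTPases encoded by Mfn1 and Mfn2, and fusion of the inner membrane by the GTPase encoded by Opa1. Division is carried out by the dynamin-related GTPase encoded by Dnm1l (also called Drp1), which is drawn from the cytosol to outer-membrane proteins such as those of Mff and Fis1 and closes around the organelle. Mtfp1 encodes an inner-membrane protein and Mtfr1 a mitochondrial regulator, both linked to division. Brown adipocytes are packed with mitochondria for heat production, while white adipocytes hold few.

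Values are FPKM, which scale fragments by transcript length and by mapped reads, so levels of different genes can be set side by side within a library. Read totals were estimated from the steps that single reads leave among low values. They lay between 11.5 and 20.7 M reads for the 3 BAT libraries and eWAT 1 and between 2.96 and 4.66 M for the other 5 libraries, so depth and depot run together in BAT against iWAT. At these estimates the smallest number of reads behind a value of the 8 genes was about 25, for Mtfp1 in iWAT 2. Brown markers (Ucp1, Cidea, Cox7a1, Cox8b, Fabp3 and Kcnk3) summed to between 25228 and 28186 FPKM in BAT, against 231 to 538 in the iWAT libraries and 58.3 to 83.7 in those of eWAT. BAT 3, whose tissue field names inguinal fat while its title names BAT, was at 26918 FPKM and was kept as its title states. Markers of skeletal muscle summed to 60.7 to 149.9 FPKM in BAT, against 1828 to 2516 for iWAT and 227 to 1308 for eWAT, and those of epithelium and skin to 26.0 to 50.5, 162 to 437 and 64.9 to 217. Of the epithelial and skin markers, Krt18, Epcam and Cdh1 were below 1 FPKM in every library. The 5 endothelial markers summed to at most 4.06 FPKM, and of the 5 leukocyte markers Ptprc, Csf1r, Cd68 and Emr1 were below 1 FPKM in every library. The remaining leukocyte marker, Cd14, ran from 1.46 FPKM in iWAT 2 to 8.63 in eWAT 1. The 5 markers of stromal progenitors summed to 3.09 to 16 FPKM in BAT, against 78.0 to 345 for iWAT and 59.2 to 163 for eWAT. These sums were mostly Dpt and Dcn. Pdgfra and Pi16 were below 1 FPKM in every library, and Cd34 was at most 1.24 FPKM. The part of muscle, skin and stromal RNA in the differences from BAT was not tested. The library iWAT 1 correlated more closely with each eWAT library (0.945 to 0.963, across tested genes of log2(FPKM + 1)) than with iWAT 2 and 3 (0.899 and 0.934). For the 8 genes and the counts over all genes, the larger changes without it are given. Other results were not recomputed without it. In a pull-down from whole tissue, fewer cells of a type and less RNA per cell cannot be told apart.

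In BAT against iWAT, to ask how a thermogenic depot differs from a subcutaneous white one, 5 of the 8 genes were higher in BAT, none was lower and 3 were not called by limma at an adjusted p under 0.05; all 8 had passed the filter on low values. The 5 were the fusion genes Mfn1, Mfn2 and Opa1 with Mtfp1 and Mtfr1. The 3 others were Dnm1l, Fis1 and Mff, the division GTPase and its outer-membrane partners. Of all 10374 genes tested, 57.5% were called, 34.5% higher and 22.9% lower in BAT. The median log2 difference of the 8 was 1.26, against 0.23 over all tested genes. In BAT against eWAT the same 5 genes were called higher and the same 3 were not, beside 33.7% of all genes called (20.2% higher and 13.5% lower), with a median of 1.19 against -0.02 over all genes. Called and at least 2-fold higher (1 or more in log2) were 5 of the 8 against iWAT, where 25.3% of all genes were, and 4 of the 8 against eWAT, where 15% were, Mfn2 falling just short there. Against iWAT, Mfn2 also fell short of 2-fold with median-ratio scaling (0.82), with quantile normalization (0.67) and without BAT 2 (0.99), though still called. The 2 comparisons share the BAT libraries and are not independent of each other.

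**Figure D1:**
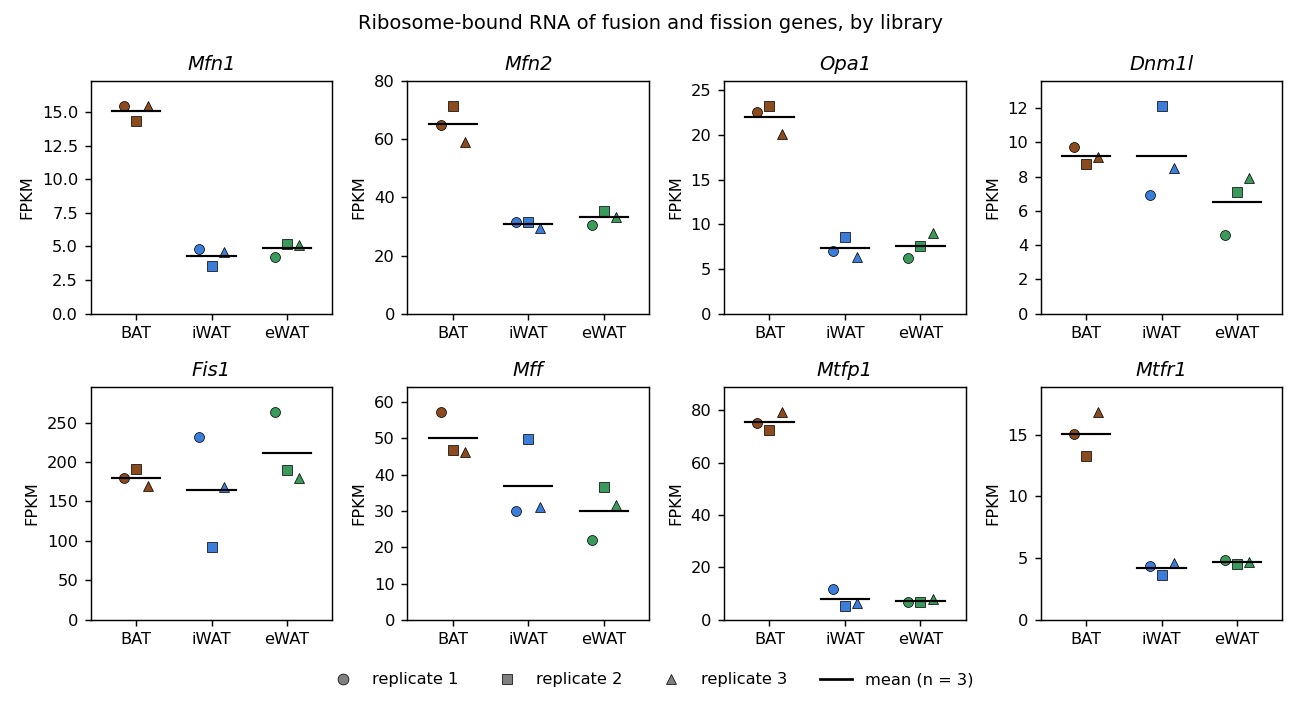
FPKM (linear axis from 0, own scale per gene) of the 8 genes, library by library, in the 3 depots; symbols mark replicates 1 to 3 and the line the mean of 3 libraries. BAT lies above all 6 white libraries for Mfn1, Mfn2, Opa1, Mtfp1 and Mtfr1, while Dnm1l, Fis1 and Mff overlap between BAT and iWAT.

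Among the mitofusins, Mfn1 (chromosome 3, 32428387 to 32478161, plus strand, build mm9) was at 15.4, 14.3 and 15.5 FPKM in BAT 1 to 3. The iWAT libraries stood at 4.80, 3.51 and 4.56 FPKM and the eWAT libraries at 4.24, 5.18 and 5.14. Each BAT library was thus far above every white one, with means of 15.1 ± 0.642, 4.29 ± 0.687 and 4.85 ± 0.530 FPKM (SD, n = 3). The log2 difference was 1.61 from iWAT (SE 0.20, limma adjusted p = 0.000181) and 1.46 from eWAT (SE 0.20, limma adjusted p = 0.000392). Mfn2 (chromosome 4, 147247708 to 147278813, minus strand), the second mitofusin, which also tethers mitochondria to the endoplasmic reticulum, was at 65.0, 71.4 and 58.9 FPKM in BAT. For iWAT the values were 31.4, 31.5 and 29.4 FPKM, and for eWAT 30.6, 35.5 and 33.2. The groups did not overlap, but the step was smaller than for Mfn1: 1.05 in log2 from iWAT (SE 0.19, limma adjusted p = 0.0014) and 0.95 from eWAT (SE 0.19, limma adjusted p = 0.00356). Without eWAT 2 and 3, which leaves the deep library alone for that depot, the Mfn2 difference from eWAT was 1.06 and no longer called (limma adjusted p = 0.0562).

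Mfn2 was the more abundant mitofusin in every library, and the balance of the pair differed between brown and white fat. Mfn2 stood at 4.21, 4.98 and 3.81 times the FPKM of Mfn1 in BAT. The ratio was 6.54, 8.96 and 6.45 in iWAT and 7.21, 6.85 and 6.46 in eWAT. All 3 BAT ratios lay below all 6 white ones; a ratio within a library does not change with the scaling of that library, and no test was made of it.

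Opa1 (chromosome 16, 29579420 to 29654970, plus strand), the inner-membrane fusion GTPase that also keeps cristae tight, was at 22.5, 23.2 and 20.1 FPKM in BAT. The inguinal libraries read 7.0, 8.56 and 6.35 FPKM, the epididymal ones 6.17, 7.54 and 9.07. The white depots overlapped each other and lay well under BAT, with a log2 difference of 1.47 from iWAT (SE 0.22, limma adjusted p = 0.000442) and 1.43 from eWAT (SE 0.22, limma adjusted p = 0.000682). The splice forms of Opa1, like those of Dnm1l and Mff, are not resolved in a table with 1 value per gene.

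Mtfp1 had the largest difference of the 8. This short gene (chromosome 11, 3991483 to 3995448, minus strand) was at 75.1, 72.4 and 79.3 FPKM in BAT. White libraries read 11.8, 5.22 and 6.30 FPKM (iWAT) and 6.73, 6.83 and 7.77 FPKM (eWAT), with no overlap with BAT. The ratio of the means was 9.72 to iWAT and 10.6 to eWAT. On the log2(FPKM + 1) scale, which understates changes of low genes, the difference was 3.20 from iWAT (SE 0.27, limma adjusted p = 1.97e-05) and 3.24 from eWAT (SE 0.27, limma adjusted p = 1.81e-05). Among all 10374 tested genes these differences ranked 148th and 110th from the highest. By mean FPKM, Mtfp1 held place 5 among the 8 in both white depots and place 2 in BAT, after Fis1.

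Mtfr1 (chromosome 3, 19087327 to 19120817, plus strand) was at 15.1, 13.3 and 16.8 FPKM in BAT. Inguinal values were 4.34, 3.60 and 4.60 FPKM, and epididymal values 4.85, 4.51 and 4.68. The white values were tightly grouped and BAT lay above them, by 1.63 in log2 from iWAT (SE 0.20, limma adjusted p = 0.000152) and 1.5 from eWAT (SE 0.20, limma adjusted p = 0.000302).

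Dnm1l (chromosome 16, 16312328 to 16359123, minus strand), the GTPase that carries out division, was at 9.71, 8.75 and 9.16 FPKM in BAT. The 3 inguinal libraries had 6.91, 12.1 and 8.51 FPKM, and the 3 epididymal libraries 4.57, 7.08 and 7.91. BAT lay inside the range of iWAT and above that of eWAT. The log2 difference was 0.03 from iWAT (95% interval -0.55 to 0.62, limma adjusted p = 0.919) and 0.47 from eWAT (-0.11 to 1.05, limma adjusted p = 0.185). With median-ratio scaling and with quantile normalization the difference from iWAT turned to -0.19 in both, again not called. The longest of 2 partial matches to the Dnm1l coding sequence (2229 bases) lies on chromosome 2 (86167319 to 86168726, mm9, 1443 aligned bases at 90.4% identity). Some reads could thus be placed at the wrong site, and their share was not estimated.

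Fis1 (chromosome 5, 137429145 to 137442104, plus strand), a small outer-membrane protein, had the highest mean of the 8 in every depot. BAT libraries read 179, 191 and 169.7 FPKM, iWAT libraries 232, 92.8 and 169, and eWAT libraries 263, 189.9 and 179.7. White libraries lay on both sides of BAT. The log2 difference was 0.23 from iWAT (95% interval -0.48 to 0.93, limma adjusted p = 0.555) and -0.21 from eWAT (-0.92 to 0.50, limma adjusted p = 0.635). Median-ratio scaling gave -0.01 and quantile normalization -0.30 for BAT against iWAT, and leaving out iWAT 2 gave -0.13. Leaving out iWAT 1 gave 0.52 (limma adjusted p = 0.115), and none of these was called.

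Mff (chromosome 1, 82721465 to 82748969, plus strand), the main outer-membrane receptor for the Dnm1l product, was at 57.2, 46.7 and 46.3 FPKM in BAT. Among white libraries the values were 29.9, 49.8 and 31.2 FPKM for iWAT and 22.1, 36.5 and 31.6 for eWAT. One iWAT library reached into the BAT range, and none of eWAT did. The log2 difference was 0.46 from iWAT (95% interval -0.14 to 1.06, limma adjusted p = 0.165) and 0.74 from eWAT (0.14 to 1.34, limma adjusted p = 0.0576). The call for Mff depended on single libraries: without iWAT 2 it was higher in BAT than in iWAT by 0.69 (limma adjusted p = 0.044). Against eWAT it was called without iWAT 1 (limma adjusted p = 0.0353), without iWAT 2 (0.0266 likewise) and with only the 2 depots in the fit (0.0215 likewise), each at 0.74. An annotated long noncoding gene, C430014B12Rik, overlaps Mff exons on the opposite strand, and the strand setting of the quantification is not given in the sources used here.

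Counted without a test, the BAT and iWAT values did not overlap for 5 of the 8 genes, near the 65.7% of all tested genes with no overlap. For BAT against eWAT, 7 of the 8 did not overlap, Fis1 being the exception, beside 54.6% of all genes.

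**Figure D2:**
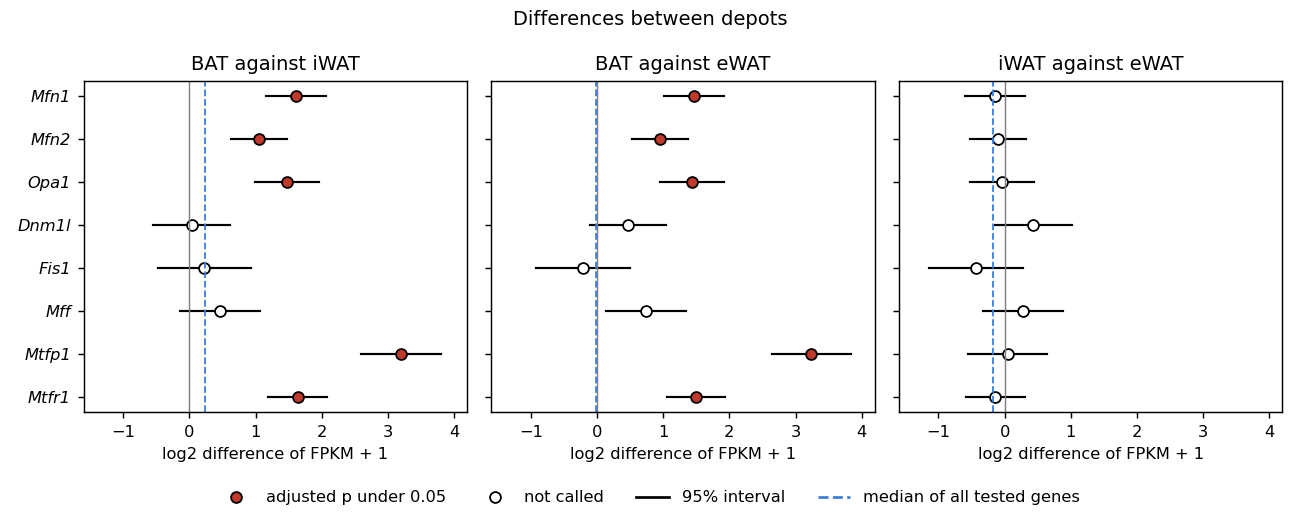
Log2 differences of FPKM + 1 (points) with 95% intervals (lines) for the 8 genes in the 3 comparisons; filled points are called at a limma adjusted p under 0.05 and the dashed line is the median of all 10374 tested genes. Mtfp1 stands at 3.20 and 3.24 against the white depots, Mfn1, Opa1 and Mtfr1 between 1.43 and 1.63, and every interval in iWAT against eWAT includes 0.

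The 4 called genes with a start site in the RefSeq promoter table were Mfn1, Mfn2, Opa1 and Mtfp1. Since they were higher in BAT together, the 250 bases before their most upstream listed start (build GRCm38.p6, RefSeq) are shown with that of Fis1, the abundant member that was not called. Capitals mark matches, on either strand, to CCAAT, the GC box GGGCGG, the ETS site CCGGAAGT or the NRF1 site, the factor NRF1 being a known regulator of nuclear-encoded mitochondrial genes.
Mfn1 (chr3:32529232-32529481, plus strand): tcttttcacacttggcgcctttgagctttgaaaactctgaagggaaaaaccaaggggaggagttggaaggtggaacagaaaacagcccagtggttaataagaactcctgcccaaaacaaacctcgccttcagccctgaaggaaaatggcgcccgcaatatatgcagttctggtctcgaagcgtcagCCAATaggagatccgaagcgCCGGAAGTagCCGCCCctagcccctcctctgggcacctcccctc
Mfn2 (chr4:147904910-147905159, minus strand): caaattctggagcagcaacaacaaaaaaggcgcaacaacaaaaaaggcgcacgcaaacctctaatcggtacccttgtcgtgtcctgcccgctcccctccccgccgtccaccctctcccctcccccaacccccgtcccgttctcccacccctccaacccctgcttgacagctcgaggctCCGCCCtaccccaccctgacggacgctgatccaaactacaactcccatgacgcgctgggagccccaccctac
Opa1 (chr16:29579084-29579333, plus strand): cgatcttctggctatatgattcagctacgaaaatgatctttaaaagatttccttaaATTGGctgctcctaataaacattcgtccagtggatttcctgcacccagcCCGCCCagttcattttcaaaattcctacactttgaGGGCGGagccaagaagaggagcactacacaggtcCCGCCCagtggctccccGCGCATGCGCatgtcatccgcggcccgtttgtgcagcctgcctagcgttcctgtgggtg
Mtfp1 (chr11:4095432-4095681, minus strand): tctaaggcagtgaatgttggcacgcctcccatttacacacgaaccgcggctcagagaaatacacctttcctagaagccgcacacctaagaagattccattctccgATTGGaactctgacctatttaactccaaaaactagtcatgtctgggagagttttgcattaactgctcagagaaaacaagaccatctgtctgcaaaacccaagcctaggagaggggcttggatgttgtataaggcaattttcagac
Fis1 (chr5:136953025-136953274, plus strand): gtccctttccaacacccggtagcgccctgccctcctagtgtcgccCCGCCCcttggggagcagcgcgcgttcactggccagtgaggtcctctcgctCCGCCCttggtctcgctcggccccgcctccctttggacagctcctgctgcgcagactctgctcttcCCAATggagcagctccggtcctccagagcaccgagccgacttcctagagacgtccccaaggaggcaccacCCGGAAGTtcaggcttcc

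The windows have little in common beyond general promoter motifs. Opa1 holds a palindromic match to the NRF1 site, GCGCATGCGC, at positions -59 to -50 before its start; 3.74% of all 32851 RefSeq windows of that length hold this motif. The ETS match stands in Mfn1 (-44 to -37) and equally in Fis1 (-18 to -11), and 2.88% of all windows have one. CCAAT was found in Mfn1, Opa1, Mtfp1 and Fis1 (33.8% of all windows) and the GC box in Mfn1, Mfn2, Opa1 and Fis1 (32.7%). None of the 12 windows of 7 members, alternative starts and those of Dnm1l and Mff included, held AAGGTCA, the core that estrogen-related receptors bind (4.08% of all windows), the full cAMP response element TGACGTCA (1.55%) or the YY1 site (0.301%). The shorter element TGACGT (6.47%) occurred only in both alternative downstream starts of Mfn2. These matches describe letters in a window and not binding.

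The rise of fusion genes in BAT was next set beside that of RNA of other nuclear genes of mitochondria. The mass, number and DNA of mitochondria were not measured here. A reference list of 20 nuclear genes of the respiratory chain and the TCA cycle (such as Ndufs1, Sdha, Uqcrc1, Cox4i1, Atp5a1 and Cs) was called higher in BAT for all 20 members in both comparisons, with a median log2 difference of 2.88 from iWAT and 2.53 from eWAT. Over all tested genes 34.5% and 20.2% were called higher, with medians of 0.23 and -0.02. Within each library the median log2(FPKM + 1) of this list ran from 9.84 to 10.05 in BAT, from 6.34 to 7.57 for iWAT and from 7.14 to 7.52 for eWAT. Relative to that median, 7 of the 8 fusion and fission genes were lower in each BAT library than in every white library. That median was itself higher in BAT, by 3.18 than in iWAT and by 2.61 than in eWAT. A gene at the median difference of all tested genes would thus also fall in BAT by this measure. The share of all genes that did so was not computed, so the count is not shown to be particular to the 8. The exception among the 8 was Mtfp1. Its log2 level minus the reference median was -3.85 to -3.59 in BAT, -3.89 to -3.51 in the iWAT libraries and -4.57 to -4.17 in the eWAT libraries. Its step from iWAT to BAT was thus about that of the reference genes, and its step from eWAT was larger.

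**Figure D3:**
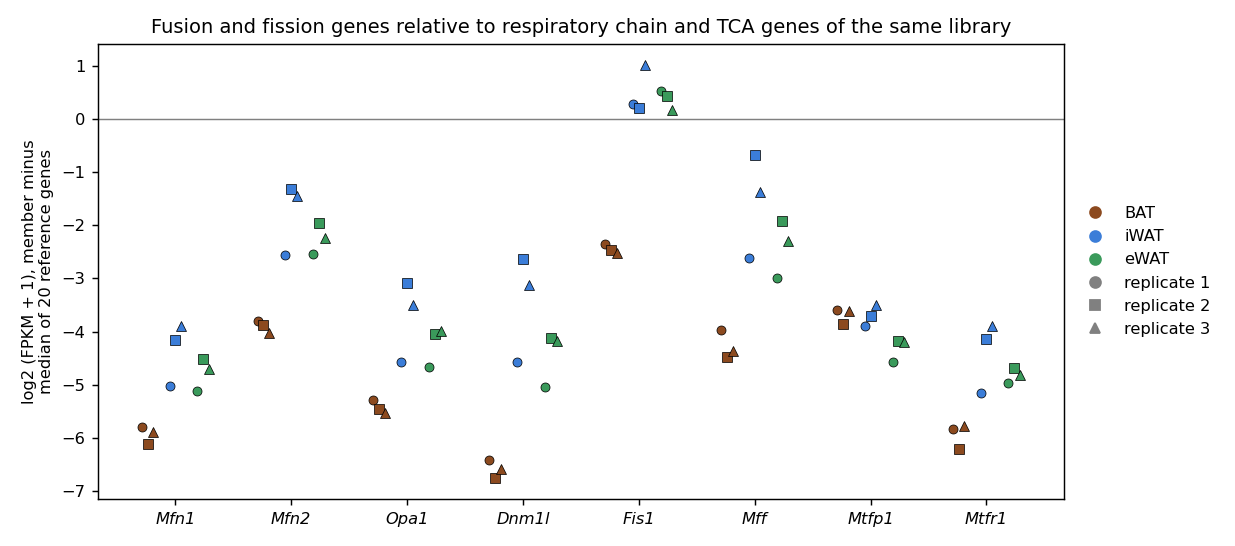
Log2(FPKM + 1) of each gene minus the median of 20 respiratory chain and TCA genes in the same library (vertical axis), for the 9 libraries; colours mark depots and symbols replicates. BAT points lie lowest for 7 genes, while for Mtfp1 they share the level of iWAT and lie above eWAT. The subtracted median was itself higher in BAT, by 3.18 than in iWAT and by 2.61 than in eWAT.

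For the called genes Mfn1, Opa1 and Mtfr1 the BAT mean of this relative level minus that of iWAT was -1.57, -1.71 and -1.54 in log2, in that order, and for Mfn2 -2.12. Dnm1l and Fis1, which were not called on absolute FPKM, were at -3.14 and -2.95, the reference itself having shifted by 3.18. For Mtfp1 the difference was 0.02 from iWAT and 0.63 from eWAT. These are descriptions within libraries, with no test, and the added 1 FPKM compresses the differences of genes near 4 FPKM.

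The make-up of the 8-gene sum changed accordingly. The sum was 416 to 441 FPKM in BAT, against 207 to 328 for iWAT and 279 to 343 for eWAT. Fis1 made up 40.8% to 43.3% of it in BAT and 44.8% to 76.9% over the white libraries. Mtfp1 made up 16.4% to 19.1% in BAT and 1.97% to 3.60% in white fat. The 3 fusion genes together made up 22.7% to 24.7% in BAT, against 13.2% to 21.0% for iWAT and 12.0% to 17.0% for eWAT. Opa1 exceeded Dnm1l 2.20 to 2.65 times in BAT, against 0.705 to 1.01 times in iWAT and 1.07 to 1.35 times in eWAT, again without overlap between BAT and white libraries.

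Between the white depots, iWAT against eWAT, none of the 8 genes was called by limma, and none had an unadjusted p under 0.05. Of all tested genes, 1.74% were called, 0.231% higher and 1.5% lower in iWAT. Taken unpaired, the 2 white depots overlapped for each of the 8, while 22.7% of all genes showed no overlap. Between libraries of the same number, Dnm1l was higher in iWAT in 3 of 3 pairs, and Fis1 and Mtfr1 were lower in 3 of 3. The share of all genes with 1 direction in 3 of 3 pairs was not computed, so nothing is read from these counts. With the replicate number as a block over all 9 libraries none of these 3 genes was called (limma adjusted p = 0.264, 0.306 and 0.67). That block is shared with BAT, where libraries 1 and 2 deviated from their depot's mean against the same-numbered white libraries (correlations -0.388 to -0.202). A block fit of the 2 white depots alone was not made, so these pairs were not tested by themselves. The median log2 difference of the 8 was -0.07 beside -0.18 over all genes. The differences ran from -0.43 for Fis1 (95% interval -1.14 to 0.27) to 0.43 for Dnm1l (-0.15 to 1.01). For the 5 genes that were higher in BAT, the difference between the white depots lay between -0.15 (Mfn1, -0.60 to 0.30) and 0.04 (Mtfp1, -0.56 to 0.65), so that differences of the size seen against BAT lie outside these intervals. Leaving out iWAT 1 raised the count over all genes from 180 to 3315 called, and the count among the 8 was still 0. Without it Fis1 stood at -0.73 (limma adjusted p = 0.0641), Dnm1l at 0.60 (0.0888 likewise) and Mtfp1 at -0.27 (0.251 likewise).

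Dnm1l and Fis1, neither of them called, ran through the white libraries in opposite orders. Dnm1l was lowest in eWAT 1 (4.57 FPKM), followed by iWAT 1, eWAT 2, eWAT 3 and iWAT 3, and was highest in iWAT 2 (12.1 FPKM). Fis1 had the reverse order over these 6 libraries, from 92.8 FPKM in iWAT 2 to 263 in eWAT 1. Mff shared with Dnm1l the lowest white value in eWAT 1 and the highest in iWAT 2, but not the order between them. The same 2 libraries were the extremes of the white samples for the summed markers of muscle (227 FPKM in eWAT 1 and 2516 in iWAT 2) and of epithelium and skin (64.9 and 437 FPKM). The muscle sum was mostly Acta1 (1369 FPKM) and Pvalb (959) in iWAT 2, and mostly Acta1 (225) in eWAT 1. Every other muscle marker was highest in iWAT 1, such as Tnnc2 (310 FPKM, against 69.3 in iWAT 2) and Tnnt3 (150 against 30.5). Summed markers of adipocytes (Adipoq, Plin1, Fabp4, Lipe, Pparg and Cidec) had the same 2 white extremes in the other direction. They were at 59029.5 FPKM in eWAT 1 and 31291.1 in iWAT 2, mostly Fabp4. Markers of white adipocytes (Lep, Retn, Nnat, Agt and Slc7a10) likewise summed to 10296 FPKM in eWAT 1 and 1901 in iWAT 2, mostly Retn. Estimated depth was 17.1 M reads for eWAT 1 and 3.41 M for iWAT 2. The part of these in the spread of Dnm1l, Fis1 and Mff was not tested. For Mfn1, Mfn2, Opa1, Mtfp1 and Mtfr1, eWAT 1 and iWAT 2 both lay far under BAT.

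A list of 40 further genes of mitochondrial dynamics placed the 8 in their pathway; 38 were in the table, 6 of them under an older symbol, and 35 passed the filter on low values. Gdap1, Mtfr2 and Miga1 stayed under it, at 1.69 FPKM or less. Pld6 and Park2 passed it through BAT alone, where they are high, so that their calls were set by the filter, and they are left out of the counts that follow. In BAT against iWAT 26 of the other 33 were higher and 1 was lower, with a median log2 difference of 1.69; of all tested genes 34.5% were higher, with a median of 0.23. In BAT against eWAT 23 were higher and 1 was lower, with a median of 1.17, beside 20.2% and a median of -0.02 over all genes. None was called between iWAT and eWAT, where the median was -0.48, beside 1.74% and -0.18 over all genes.

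**Figure D4:**
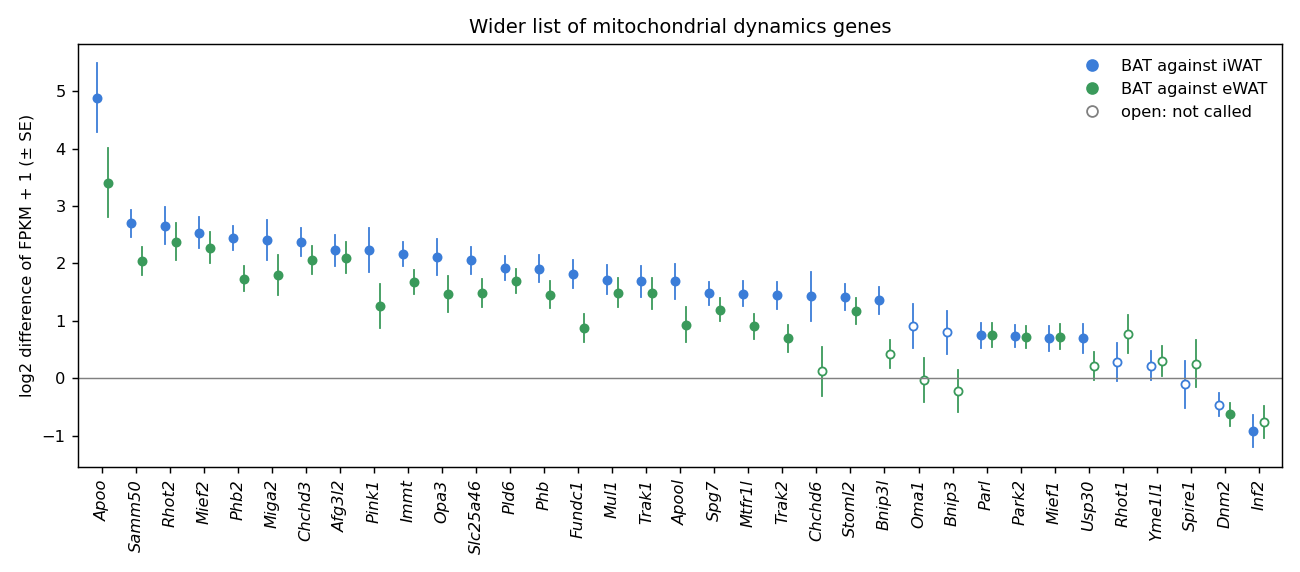
Log2 differences (± SE) of 35 mitochondrial dynamics genes for BAT against iWAT and BAT against eWAT, ordered by the first; open points were not called. Apoo leads at 4.88 and 3.41, and Dnm2 and Inf2 lie below 0 in both comparisons. Pld6 and Park2 are drawn although they passed the filter through BAT alone.

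The largest increases belonged to Apoo, a subunit of the MICOS complex that holds cristae junctions together. BAT libraries read 127, 154 and 154 FPKM, iWAT libraries 16.6, 1.68 and 1.55, and eWAT libraries 11.5, 12.5 and 14.4, with iWAT 1 at the level of eWAT (log2 differences 4.88 from iWAT and 3.41 from eWAT). Samm50, the core of the outer-membrane sorting machinery that binds MICOS, was higher by 2.69 and 2.04. The grouping by role that follows was made after the values were seen. Of 6 tested genes of cristae junctions, 6 rose against iWAT and 5 against eWAT, beside 34.5% and 20.2% of all genes; the exception was Chchd6, at 64.5 ± 3.31 FPKM in BAT and 60.7 ± 16.7 in eWAT.

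Among the partners of Dnm1l on the outer membrane, Mief2 (listed as Smcr7), an adaptor that recruits the GTPase, was at 20.6, 17.8 and 16.9 FPKM in BAT. White libraries read 3.79, 2.28 and 1.38 FPKM (iWAT) and 3.64, 2.48 and 3.0 FPKM (eWAT), a log2 difference of 2.54 (SE 0.27) and 2.27 (SE 0.27). Its paralogue Mief1 (listed as Smcr7l) differed less, by 0.70 and 0.72. Hence of the 4 adaptor genes measured, Mief1 and Mief2 were called higher in BAT in both comparisons and Mff and Fis1 in neither. Inf2, a formin that builds actin at division sites, was lower in BAT than in iWAT by -0.92 (limma adjusted p = 0.0188; against eWAT -0.76, adjusted p = 0.0619). Dnm2, a dynamin of endocytosis also implicated in the last step of division, was lower than in eWAT by -0.63 (limma adjusted p = 0.0325; against iWAT -0.46, adjusted p = 0.0675). Of 8 wider-list genes grouped under Dnm1l recruitment and constriction, 5 were higher and 1 lower against iWAT. Against eWAT 4 were higher and 1 lower. Over all genes 34.5% and 20.2% were higher. Mtfr1l (listed as Fam54b) was higher by 1.47 and 0.90, and Mul1 by 1.72 and 1.49. Usp30 was called against iWAT alone, by 0.69.

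The genes linked to mitofusins and Opa1 were mostly higher in BAT. Of outer-membrane genes linked to mitofusins, Slc25a46 and Miga2 (listed as Fam73b) were higher in both comparisons, by 1.48 to 2.41 in log2. Pld6 was at 3.35 ± 0.376 FPKM in BAT and at most 0.514 in a white library. It passed the filter through BAT alone, so its difference carries no test here. A group of 9 genes held those of Opa1 cleavage and its prohibitin scaffold, and also Opa3, which is of neither kind. Of the 9, 7 were higher in both, beside 34.5% and 20.2% of all genes. Opa3 was among these 7 (log2 differences 2.11 and 1.46). Afg3l2, a subunit of an inner-membrane protease, was higher by 2.23 and 2.10, and the prohibitin Phb2 by 2.44 and 1.74. The 2 proteases that cut the Opa1 protein directly were not called: Oma1 had means of 3.97 ± 0.487 (BAT), 1.92 ± 1.40 (iWAT) and 4.2 ± 1.52 FPKM (eWAT; SD, n = 3), and Yme1l1 of 10.7 ± 1.56, 9.22 ± 2.6 and 8.56 ± 1.48 FPKM.

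For each of the 8 genes, the 3 most similar profiles over the 9 libraries were taken among 5458 genes with a mean of at least 5 FPKM, by Pearson correlation of log2(FPKM + 1). Mfn1 was nearest to Crls1, the cardiolipin synthase (r = 0.996), Sod2, the mitochondrial superoxide dismutase, and Gfm1, a mitochondrial elongation factor. Mtfp1 was nearest to Dnajc11 (r = 0.996), Ogdh and Atpaf2, and Mtfr1 to Ciapin1 (r = 0.992), Wipi2 and Sucla2. Opa1 was nearest to Smagp (r = 0.996), Tufm and Impdh1, and Mfn2 to Rap1gds1 (r = 0.995), Slc4a4 and Glul. All 9 libraries entered each correlation, so differences between depots and within them both count. Dnm1l was nearest to Atg3 (r = 0.985), an autophagy conjugation enzyme, Mapre3 and Gnas, Mff to Slmap (r = 0.972), a tail-anchored membrane protein, Golph3 and Hist2h2be, and Fis1 to Siva1 (r = 0.973), Snrpd2 and Creld2.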

How the data were processed

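Ribosome-bound RNA of 9 libraries was depleted of ribosomal RNA and sequenced single-end, per the labels' protocols. The deposited FPKM values were made by the authors with TopHat and Cufflinks against mm9, per the submitters' processing notes; versions, annotation and strand are not given in the sources used here, and FPKM is inferred from Cufflinks, fractional values and unequal column sums. Of 22996 lines, 728 shared 259 symbols; only the line of highest mean entered the tests.

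Values were tested as log2(FPKM + 1) with limma 3.58.1 in R 4.3.3 (intensity trend, all 9 libraries, 3 group means, 6 residual degrees of freedom) over genes at 1 FPKM or more in at least 3 libraries, with Benjamini-Hochberg adjustment over 10374 genes. The fit was tested on simulated data. Depth was estimated from read steps (length offset 200 bases) in genes with 1 transcript, 1000 bases or longer; 45.7% to 65.0% of the low values used lay within 0.15 of a whole read, so it is approximate. Coordinates are from GENCODE vM1 on mm9, and copies were sought with BLAST 2.17.0 (at least 100 bases, 90% identity).

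The members and lists were chosen with earlier results of these data known. Named genes were the 8 members, up to 4 called genes of the wider list per comparison and direction, and 3 similar profiles per member; others were named after their values were seen. Same-numbered iWAT and eWAT libraries deviated together from their depots' means (correlations 0.634, 0.534 and 0.165), which by the rule of over 0.1 pairs those depots, from the values and not the labels. Some differently numbered white libraries also passed 0.1: iWAT 2 with eWAT 3 (0.228) and iWAT 3 with eWAT 2 (0.105). BAT 3 passed it with iWAT 3 (0.121) and eWAT 3 (0.103). The pairing is thus not clear for replicate 3. Alternatives were another pseudocount, filters, scalings, summed lines, pairwise fits, the replicate block, and libraries left out.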

Additional observations from a re-analysis of the deposited data

How the results depend on the processing

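The differences of the 8 genes, and the counts called among them and over all genes, were recomputed under 18 alternatives. Results of the wider and reference lists, the groups by role, the relative levels, the ratios and the similar profiles were not recomputed. Mfn1, Opa1, Mtfp1 and Mtfr1 were called higher in BAT than in each white depot in all 18, Mtfp1 by 2.87 to 3.51 from iWAT and 3.07 to 3.39 from eWAT. Mfn2 was called in all 18 against iWAT and in 17 against eWAT. Dnm1l and Fis1 were called in none, and none of the 8 was called in iWAT against eWAT. The count of the 8 called was 5 to 6 against either white depot when single libraries were left out, and 4 against eWAT without both eWAT 2 and 3, where the lone eWAT library is assumed to vary like the others. The replicate block called 5, 5 and 0 of the 8 and changed no call among them.

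Over all genes, 5961, 3492 and 180 were called in BAT against iWAT, BAT against eWAT and iWAT against eWAT, and 6080, 3625 and 221 with the replicate block. A filter at a mean of 5 FPKM gave 3783, 2244 and 79, with 5934 genes tested. For iWAT against eWAT, a pseudocount of 0.1 gave 90, no filter 99, median-ratio scaling 113 and only the 2 depots in the fit 45. Without both eWAT 2 and 3 the counts against eWAT were 1411 for BAT and 27 for iWAT. Leaving out single libraries gave 4289 (without BAT 2) to 6829 (without iWAT 1), 2141 (without BAT 3) to 4422 (without iWAT 1), and 15 (without eWAT 3) to 3315 (without iWAT 1); the cause was not tested. In BAT against iWAT the calls split into 3583 higher and 2378 lower, 3008 and 2913 with median-ratio scaling, and 2936 and 2851 with quantile normalization. In BAT against eWAT they split into 2094 higher and 1398 lower, and without eWAT 1 into 1921 and 2217. In iWAT against eWAT the split was 24 higher and 156 lower, 32 and 81 with median-ratio scaling, and 42 and 99 with quantile normalization. The median of all genes in BAT against iWAT was 0.23, and 0.04 with either of these scalings; in iWAT against eWAT it was -0.18, and -0.0018 and -0.02 with them. Low depth limits the values of the 5 shallow libraries, where Mtfp1, Mtfr1 and Mfn1 rested on an estimated 25 to 108 reads.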

Other observations

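The genes of mitochondrial transport and of mitophagy, the removal of damaged mitochondria, belong to the same wider list. Of 4 transport genes 3 were higher in BAT in both comparisons, beside 34.5% and 20.2% of all tested genes. Rhot2, which encodes a GTPase that anchors motors to mitochondria, read 37.2, 37.2 and 32.2 FPKM in BAT, against 9.37, 3.13 and 3.54 for iWAT and 6.29, 5.70 and 6.11 for eWAT (log2 differences 2.65 and 2.37). Its paralogue Rhot1 was at 13.1 ± 1.77, 10.9 ± 3.50 and 7.68 ± 3.02 FPKM (SD, n = 3) and was not called in either (limma adjusted p = 0.48 and 0.0981). The adaptor Trak1 was higher by 1.69 and 1.48 and Trak2 by 1.45 and 0.69.

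Of 4 mitophagy genes other than Park2, 3 rose against iWAT and 2 against eWAT, beside 34.5% and 20.2% of all tested genes. Pink1, the kinase that marks damaged mitochondria, read 168, 205 and 168 FPKM in BAT, against 71.7, 21.5 and 34.0 for iWAT and 98.1, 60.8 and 68.9 for eWAT. The ubiquitin ligase gene Park2 was low throughout, at 1.22 ± 0.0958 FPKM in BAT and at most 0.668 in a white library; it passed the filter through BAT alone, so its difference carries no test here. Bnip3, a mitophagy receptor that also responds to low oxygen, had means of 430 ± 107 (BAT), 261 ± 126 (iWAT) and 503 ± 138 FPKM (eWAT) and was not called (limma adjusted p = 0.0841 and 0.66).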
